A study of Hordeum vulgare with 8 samples.

Results

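MLOC_54434.1 is a high confidence (HC) barley gene on chromosome 7H, placed at 134.207 cM of the POPSEQ genetic map and annotated in the study's gene list as zinc finger protein 3. Its members here are the variant sites listed under this transcript in the deposited table, whatever their filter value, and there were 11 of them among 140560 sites. The transcript is 1 of 40344 in the table. The sites were read in a pair of near isogenic lines (NILs), both derived from the heterogeneous inbred family DM1-e35R. This family came from crosses of the barley cultivar Morex with wild barleys, so most but not all of the shared background is Morex. By the paper, such families were fixed for the wild allele of the row type gene vrs1. The line e35RM carried the Morex allele of the awn length QTL AL7.1 and had long awns. The line e35RD carried the wild barley allele (D) from accession HID382 as an introgression on the long arm of 7H and had short awns. RNA came from shoot apices at Waddington stage 5.5, a stage of spike development, of plants grown with 16 h of light at 22 °C and 8 h of darkness at 18 °C. 10 apices were pooled for RNA, and 4 libraries per line were sequenced, 8 in all. Each line has 1 column in the table, which pools its libraries, so the values below have no replicate error and no test over plants was possible with them. The paper's own expression analysis of the libraries reports MLOC_54434.1 and MLOC_72272.1 as differentially regulated between these lines. It also mentions high variation between the replicates.

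Zinc finger proteins of the C2H2 type hold a zinc ion between cysteine and histidine residues, and many of them bind DNA and act as transcription factors. The best match of MLOC_54434.1 in Arabidopsis, by the study's annotation, is ZFP7, and in rice a C2H2 zinc finger protein. In Arabidopsis, related C2H2 proteins such as GIS and ZFP8 act in the formation of trichomes. The awn is the bristle that extends the lemma of the barley floret, and its primordium forms in the young spike.

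The start of the coding sequence is shown for both lines because it holds a difference that the variant table does not list. The stretches come from the study's Sanger sequencing and begin with the start codon, and capitals mark the bases that differ between the lines.
e35RM: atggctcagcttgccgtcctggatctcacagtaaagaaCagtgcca
e35RD: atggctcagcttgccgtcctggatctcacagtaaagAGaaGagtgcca
After 36 shared bases, e35RD had 2 added bases. The other difference was the substitution C39G, with positions counted from 1 at the first base of the e35RM stretch. As 2 is not a multiple of 3, the frame of codons 3′ of the added bases differs between the lines. The stretch is 46 bases long in e35RM and 48 in e35RD.

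The primers of the study's marker for this gene are shown because the forward primer anchors the stretch. Capitals mark its last 9 bases, which are the first 9 bases of the coding sequence.
marker forward primer: actcctgtccATGGCTCAG
marker reverse primer: gtatggctgtgtgggtgact

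The table listed 0 insertions or deletions in MLOC_54434.1 and 0 sites within the stretch above. The paper's Discussion instead mentions a small deletion in this gene from the variant calling, which is not among the listed sites. The first listed site lay at base 54 and had 1 read in e35RD and no call in e35RM. The depth at the bases that differ is not in the table, and why the differences of the stretch are not listed was not tested. All 11 listed sites lie 3′ of the added bases, with positions counted from 1 at the first base of the transcript. That this base is also the first base of the start codon was taken from the frame described below and was not tested on a transcript sequence.

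Which alleles the lines carried was read from the genotype calls. The call in e35RD was homozygous non-reference at 11 of 11 sites. e35RM was homozygous for the reference base at 5 sites and had no call at 6. A call of a non-reference base in e35RM did not occur. A site is said to be in opposite states where e35RD was homozygous non-reference and e35RM was homozygous reference or had no call. Of the 11 sites, 7 had passed the authors' filter, and 7 of these 7 were in opposite states. Over all passing single-nucleotide sites of the table, 3417 of 65043 were in such states, which is 5.25%. At the 7 sites, e35RM had a reference call at 3 and no call at 4. With so few reads in e35RM, a listed site was likely to be non-reference in e35RD by construction, so no excess over the share is read. The sites of a transcript are linked and share reads, so they are not independent of each other.

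The sites spanned 480 bases, from base 54 to base 533, with a median gap of 44 bases. The 3 sites that failed the filter for clusters of SNPs lay within 24 bases, at 205 to 228. The remaining failed site, T54C, had low quality. In these changes, the reference base comes before the position and the base of e35RD after it. There were 5 transitions and 6 transversions. Transitions made up 45.5% of the changes, against 57.7% over all single-nucleotide sites of the table, and with 11 sites no difference can be read from this.

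Effects on the protein were given in the study's SNP table for the 7 passing sites, 4 of them synonymous and 3 nonsynonymous. The 7 effects could all be explained by a reading frame that starts at base 1 of the transcript, and 0 by a frame from base 2 or base 3. In this frame, 3 of the 11 sites fall on the first base of a codon, 2 on the second and 6 on the third. The effects refer to the frame of the reference, in which the added bases of e35RD are not taken into account. The paper reports that this insertion shifts the frame and leads to an early stop codon. The residue changes below are therefore those of the reference frame, and the protein of e35RD was not examined.

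In the reference frame, the nonsynonymous sites were A316G, T479A and G533C. A316G lies in codon 106 of that frame and would change asparagine to aspartate, from a neutral to an acidic residue. It was the deepest site of the gene, with 43 reads in e35RD, all with the non-reference base, and 2 reads in e35RM, both with the reference base. The exact interval of the non-reference share in e35RD reached down to 91.8%, whereas 2 of 2 reference reads in e35RM allow a reference share as low as 15.8%. These bounds, and the other intervals given, are 95% limits by the Clopper-Pearson method, for counting error alone. T479A lies in codon 160 and would change methionine to lysine, a basic residue. It had 19 reads in e35RD, all non-reference, and 2 reference reads in e35RM. G533C, in codon 178, would change cysteine to serine. Cysteines bind zinc in this family, but whether this one belongs to a finger was not examined. Its support was 6 non-reference reads in e35RD, with a genotype quality of 12, and no call in e35RM.

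The synonymous sites were A81G, A123G, T270G and G408C, all on the third base of a codon. At T270G, 39 reads in e35RD were non-reference and 1 read in e35RM had the reference base. At G408C, e35RD had 24 non-reference reads and e35RM had no call. A123G had 10 reads in e35RD, of which 9 carried the listed base and 1 was not assigned to either allele. A81G rested on 3 reads in e35RD. Both A81G and A123G lacked a call in e35RM, so 4 of the 7 passing sites, with G408C and G533C, had no read that showed the e35RM allele.

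No effect was given for the 4 sites that failed the filter. For these the genetic code was applied to every codon that could hold the change at the given codon position, 16 codons for each site. T54C falls on the third base of codon 18, and 16 of 16 codons keep their residue. T228G falls on the third base of codon 76, and 8 of 16 keep it. T205A and A223G fall on the first base of codons 69 and 75, and 0 of 16 keep the residue in either case. If these calls hold, both would thus change the protein of the reference frame. The 3 sites of the cluster had depths in e35RD within the range of the passing sites. T205A had 19 reads in e35RD and no call in e35RM. A223G had 23 reads in e35RD against 1 in e35RM. T228G had 24 against 1, and it was the site of the gene where e35RD also showed a reference read, 1 of 24, which leaves 95.8% non-reference (78.9 to 99.9%).

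Confidence in a call is given by its genotype quality, a phred-scaled score of the caller with 99 as its top. In e35RD it ran from 3 to 99 with a median of 48, and 8 of the 11 sites had at least 20. The score of 99 was reached at 2 sites, T270G and A316G. At T228G the score was 30, below the 51 of T205A, although T228G had more reads. In e35RM the score was 3 at the sites with 1 read and 6 at those with 2 reads. The calls of e35RM were therefore weak throughout, and those of e35RD were weak at both ends of the listed stretch.

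Read depth rose and fell along the transcript in e35RD and stayed low in e35RM. In e35RD it was 1 read at base 54, 3 at base 81 and 10 at base 123, then 19, 23 and 24 in the cluster. It was highest at bases 270 and 316, with 39 and 43 reads, and came down to 24, 19 and 6 at bases 408, 479 and 533. In e35RM it was 1 at bases 223, 228 and 270 and 2 at bases 316 and 479, with no call at the other 6 sites. e35RD thus had more reads than e35RM at the 5 sites with a call in both lines, and at the other 6 the depth of e35RM is not given. The highest depth in e35RM, 2 reads, was reached at sites with 43 and 19 reads in e35RD. The reads of e35RM lay between bases 223 and 479, where e35RD had at least 19 reads at each site.

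**Figure D1:**
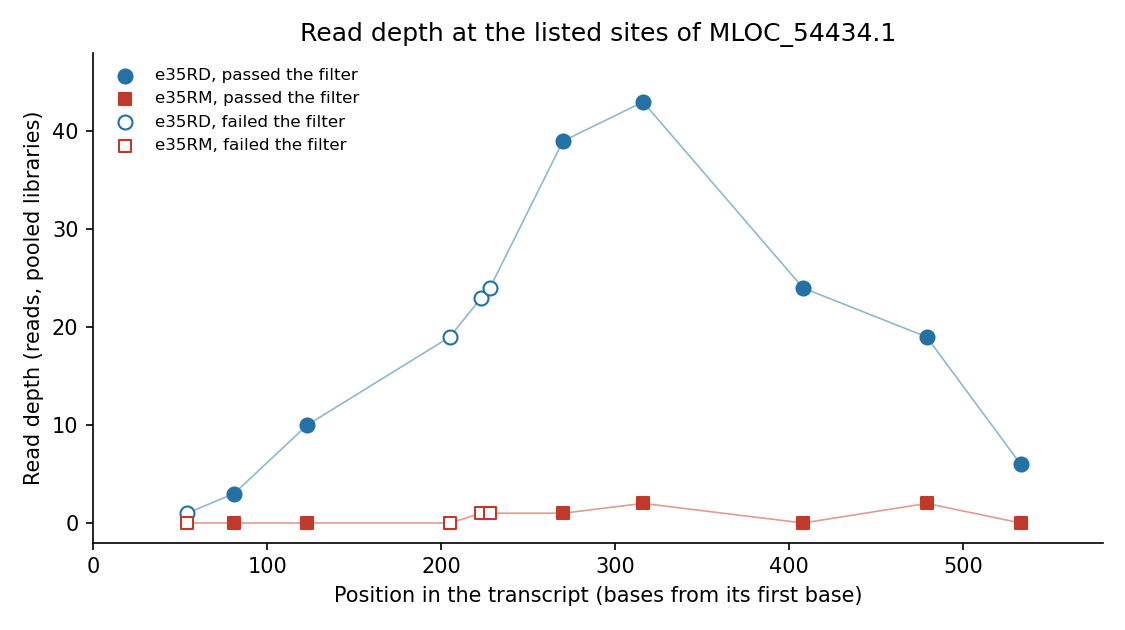
Read depth (reads in the pooled libraries of a line, y axis) at the 11 listed sites of MLOC_54434.1 against the position in the transcript (bases, x axis), with circles for e35RD, squares for e35RM and open symbols for sites that failed the filter. A site without a call is drawn at 0. e35RD rises to 43 reads at base 316, and e35RM has 1 or 2 reads where it has a call.

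How far the depth of the transcript differed was computed over the 6 passing sites where one line or both had 5 reads or more. A site without a call was counted as 0 reads. Mean depth was 0.833 reads in e35RM (0 to 2) and 23.5 in e35RD (6 to 43), a ratio of −4.82 on the log2 scale, or 28.2-fold lower in e35RM. With the sites that failed the filter, 9 sites gave 0.778 against 23 reads. Depth is given per site, that is per base covered, so that transcripts of different length can be set side by side. At the deepest site, A316G, e35RM contributed 4.44% of the reads of both lines (0.543 to 15.1%), which is a log2 ratio of −4.43 with an interval of −7.52 to −2.49. This interval covers counting error, and the spread between libraries or plants is not in it. The depth of e35RM at a site without a call is not given in the table, and over the 3 passing sites with a call in both lines the log2 ratio was −4.34. In bulk apices, fewer cells that contain the transcript and less RNA per cell cannot be told apart.

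The whole table showed no such difference between the lines. Both had a median depth of 10 reads at called sites, and the median log2 ratio was 0 over the 11121 transcripts that reached a mean of 10 reads per site in one line or both. The ratios of 95% of the 11006 transcripts with reads in both lines lay between −0.65 and 0.65. Depth in e35RM was at least 4-fold below that in e35RD for 61 of the 11121 transcripts, or 0.549%, and MLOC_54434.1 was one of them. This count rests on the depth asked for, as it was 348 when a mean of 5 reads was enough and 11 when 20 were needed. MLOC_54434.1 and the transcripts without a read in e35RM met the minimum through e35RD, the line in which they were deeper, so no rank is drawn from the count. The opposite, at least 4-fold more depth in e35RM, was found for 72. Of the 61, 52 had no read in e35RM at the sites used, with a missing call counted as 0 reads, and 9 had a finite ratio. Among the finite ratios, 1 was lower than that of MLOC_54434.1. This is a description under the same minimum and not a rank, as the 52 have no ratio.

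**Figure D2:**
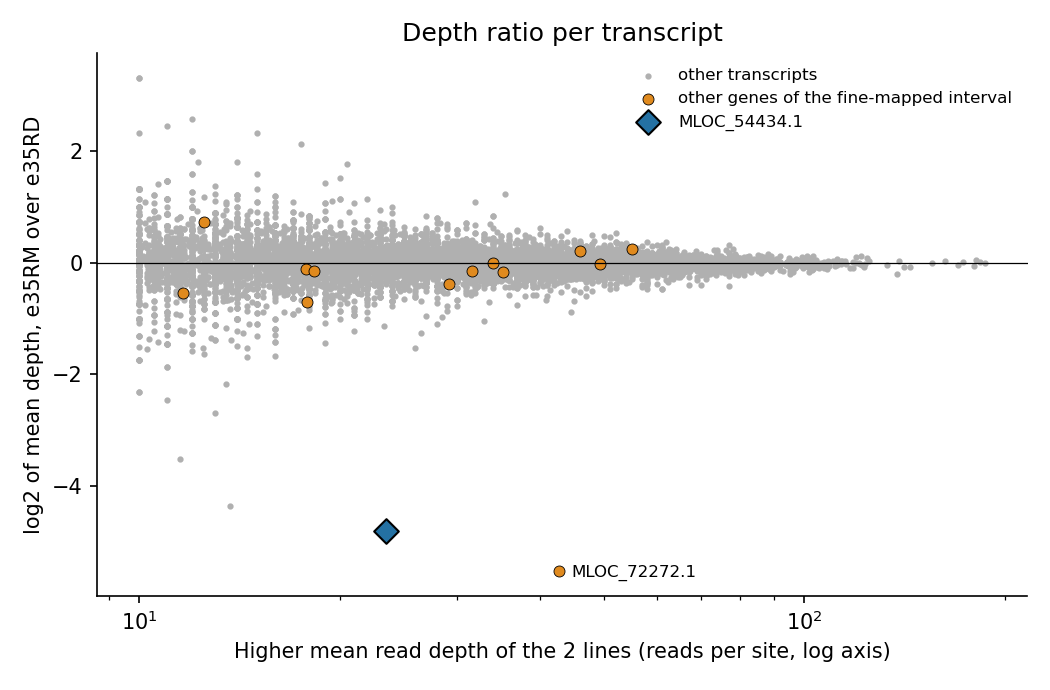
Log2 ratio of mean read depth, e35RM over e35RD (y axis), against the higher mean depth of both lines (reads per site, log x axis) for transcripts with at least 10 reads in a line and reads in both lines. MLOC_54434.1 (diamond) lies at −4.82, with MLOC_72272.1 below it at −5.53, and the other genes of the fine-mapped interval that reach this depth (orange circles) lie between −0.70 and 0.74.

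The transcripts with a finite ratio closest to that of MLOC_54434.1 were AK360309, MLOC_72272.1, MLOC_34670.3, MLOC_73950.1 and AK376733, by the absolute difference of the log2 ratio over the pooled lines. AK360309 had 0.667 reads in e35RM and 13.7 in e35RD at 3 passing sites, a log2 ratio of −4.36. With its failed sites included, however, 16 sites gave 19.9 and 27.9 reads and a ratio of −0.48. MLOC_73950.1 and AK376733 moved in the same way, from −2.70 to −0.78 and from −2.46 to −1.17. The ratios of these transcripts thus came closer to 0 with the failed sites, though those of MLOC_73950.1 and AK376733 were still below −0.65, whereas MLOC_54434.1 had −4.89 over all listed sites. MLOC_72272.1 had a ratio of −5.53 over 13 sites, with 0.923 and 42.7 reads, and MLOC_34670.3 had −3.52 over 2 sites, with 1 and 11.5 reads. For both, the failed sites added none to the mean.

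Of the 52 transcripts counted as without a read in e35RM, 38 rested on 1 site, and 9 had at least 20 reads per site in e35RD. Their true depth at sites without a call is not given. The 5 deepest were MLOC_23032.1, MLOC_46418.1, MLOC_61525.1, MLOC_34066.1 and MLOC_31686.1, with mean depths in e35RD of 32, 31, 26, 23.5 and 21 reads. MLOC_46418.1 and MLOC_61525.1 had reads in e35RM at sites that failed the filter, with log2 ratios of −1.01 and −0.71 over all listed sites. MLOC_34066.1 remained at 0 reads in e35RM over 4 listed sites, against 28.5 in e35RD. None of these 5 stood in the gene list of the QTL region.

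The allele reads of both lines were compared at each passing site with at least 1 read in each line by a two-sided Fisher's exact test, with Benjamini-Hochberg adjustment over 52857 sites. Calls needed an adjusted p below 0.05 and nearly pure alleles, with non-reference reads making up no more than 0.1 of the reads in one line and no less than 0.9 in its counterpart. With e35RD as the non-reference line, 49 sites were called, which is 0.0927% of those tested. In MLOC_54434.1, 3 sites could be tested and 0 were called. The lowest p was that of A316G, with an exact p = 0.00101 and an adjusted p = 0.921. T479A had an exact p = 0.00476 and T270G an exact p = 0.025, both with an adjusted p = 1. The unadjusted p was below 0.05 at 3 of 3 sites. At each of them all reads of e35RM were reference and all of e35RD non-reference, so each p is the lowest its depths allow. These p-values restate the calls of linked sites, and no support is drawn from them. The sites called had at least 7 reads in the line with the lower depth, against 1 or 2 in MLOC_54434.1, so that a difference in alleles of this gene was not detectable by this test at its depth in e35RM. The test compares the sequenced pools and not plants.

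A transcript with opposite states at each of its sites was uncommon. Of the 8128 transcripts with at least 3 passing sites, 50 had them at all sites, or 0.615%, and 50 others in the reverse direction, with e35RM non-reference. MLOC_54434.1 was 1 of the 50 and the one among them that stood in the gene list of the QTL region. It was counted because a missing call in e35RM was accepted, as 4 of its 7 sites had no call there. With a reference call required at each site, neither it nor any other of the 50 would remain. Depth in e35RD is depth in the line in which these transcripts have their reads, so no rank is drawn from it. It had a mean depth of 20.6 reads in e35RD over its 7 sites. The other 49 had a median of 1.75 reads and at most 13, which was the depth of MLOC_3483.1. MLOC_42913.1 equalled MLOC_54434.1 in number of sites, 7, with a mean depth of 6.43 reads. The transcripts also differed in what e35RM showed. MLOC_54434.1 had a call in e35RM at 3 sites, MLOC_15787.2 and MLOC_50122.1 at 1 site each, and the other 47 at none. For the others, opposite states mostly meant a few reads in e35RD where e35RM had no call.

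**Figure D3:**
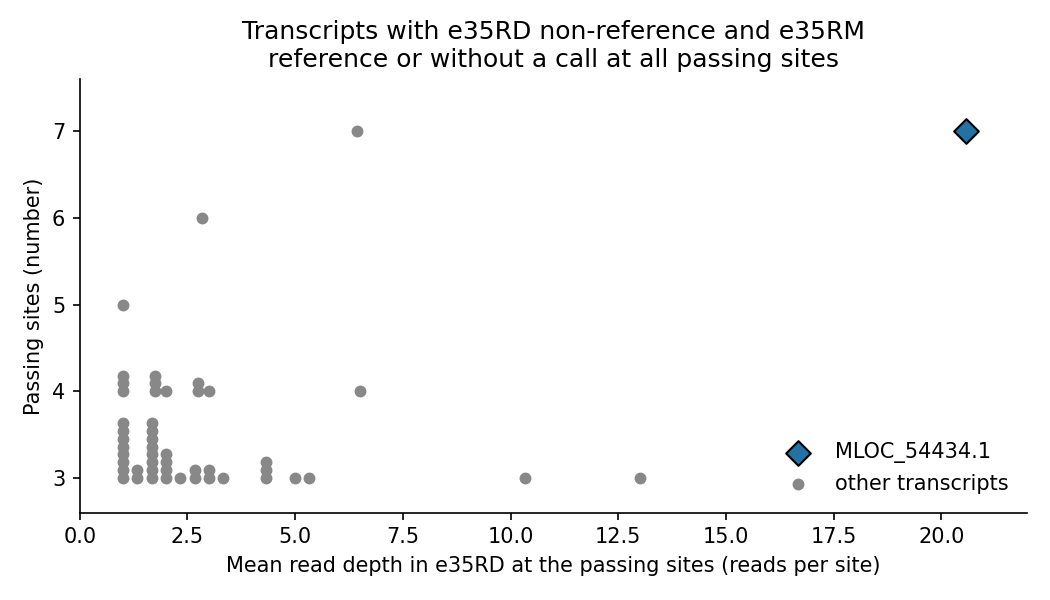
Number of passing sites (y axis) against mean read depth in e35RD at these sites (reads per site, x axis) for the 50 transcripts with opposite states at all of at least 3 passing sites; points with equal values are stacked upwards. MLOC_54434.1 (diamond) has 7 sites and 20.6 reads, and the other transcripts have at most 13 reads.

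At the map position of MLOC_54434.1, the gene list of the QTL region holds 29 genes, and 16 others have a listed site. For 8 of them a depth ratio with reads in both lines was available, and it lay between −0.37 and 0.24 with a median of −0.15. The neighbours were therefore covered about equally in both lines where MLOC_54434.1 was not. MLOC_75309.1 had the lowest of these ratios, with 22.5 reads in e35RM and 29.2 in e35RD. MLOC_38856.2 had the highest, with 55 and 46.5 reads. MLOC_75308.3 (28.6 and 31.6 reads), MLOC_181.1 (34 and 34), MLOC_69623.1 (16.5 and 18.3) and MLOC_69624.1 (8 and 9) lay between them. MLOC_7019.5 was the exception, with 8 reads in e35RM and no call in e35RD at the 1 site used. Elsewhere among its 3 listed sites, e35RD had up to 4 reads.

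Over the fine-mapped interval, which holds 66 genes of the list, 13 others reached a mean of 10 reads per site in one line or both. Their median log2 ratio was −0.14, and apart from MLOC_72272.1, a protein kinase gene at 133.924 cM, the lowest was −0.70 in AK249008.1. A further 5 genes with a depth value were below this minimum. Among them MLOC_58068.1 had no read in e35RM and 5.67 in e35RD over 3 sites, with 6 passing sites in opposite states, and MLOC_54337.1 had 7 reads in e35RM and 3 in e35RD at 1 site, a ratio of 1.22. MLOC_54434.1 had 7 passing sites in opposite states, and the 24 others of this interval with passing sites had at most 6. This order rests on missing calls, since with a reference call required in e35RM MLOC_54434.1 had 3 such sites, and 8 of the others had more, up to 6. With failed sites counted, it had 11, and 3 genes had more, AK367995 with 16 and AK249008.1 and AK374634 with 12 each.

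3 further genes of the list are annotated as zinc finger proteins, of other classes than C2H2. AK367995, with a RING/FYVE/PHD finger, and MLOC_75307.1, with a Zim17-type finger, share the map position of MLOC_54434.1, and AK355711, an LC gene with a RING finger, lies at 132.224 cM. AK367995 had 48.7 reads in e35RM and 49.3 in e35RD, a log2 ratio of −0.02. Of its 6 passing sites, 5 were in opposite states. At its site A1218G, 55 reads in e35RM were reference and 54 in e35RD non-reference. MLOC_75307.1 had 31.2 and 35.2 reads, a ratio of −0.17, and 4 sites in opposite states. At C173T, 44 reads in e35RM were reference and 52 in e35RD non-reference. AK355711 had 5 reads in each line at its site, with the reference base in both. In AK367995 and MLOC_75307.1 opposite homozygous calls thus came with many reads in both lines, whereas in MLOC_54434.1 the calls of e35RM rested on 1 or 2 reads or were missing.

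**Figure D4:**
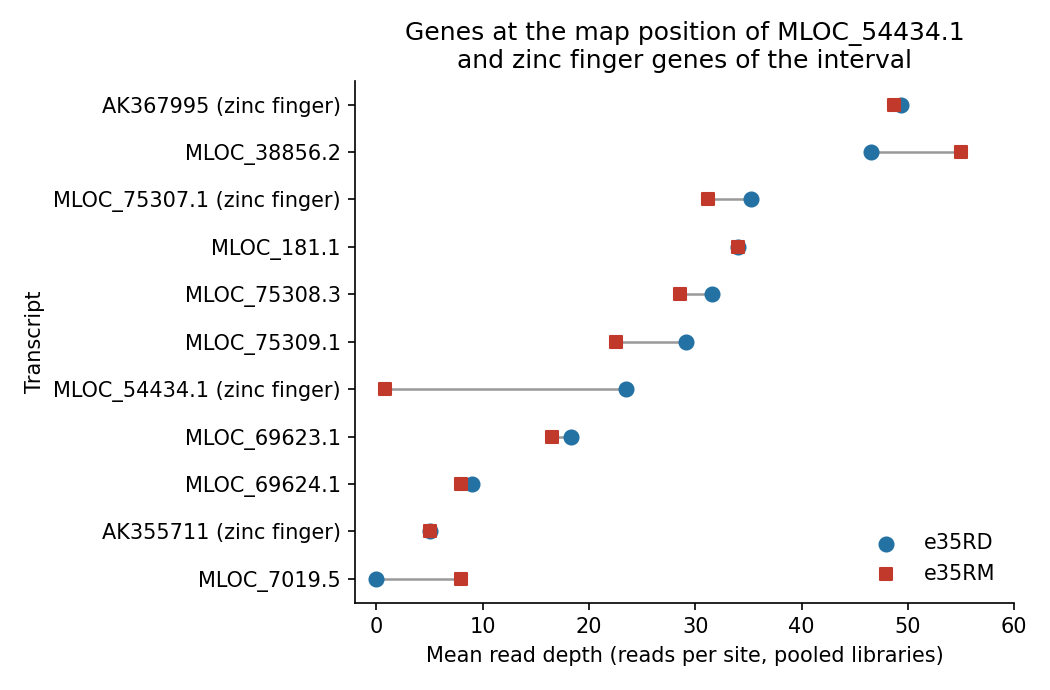
Mean read depth (reads per site, x axis) in e35RM (squares) and e35RD (circles) for MLOC_54434.1, the genes at its map position with a depth value, and the zinc finger genes of the list, joined by a line for each transcript. MLOC_54434.1 has 0.833 and 23.5 reads, and the 8 neighbours with reads in both lines have log2 ratios between −0.37 and 0.24.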

How the data were processed

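Shoot apex RNA of e35RM and e35RD was sequenced in 4 libraries per line. The authors trimmed the single-end reads, aligned them with Bowtie2 to the HC and LC genes of barley, and discarded duplicates. Variants came from the UnifiedGenotyper of GATK, and 1 table of sites was deposited. Read depth and allele depths are deposited as raw counts for each site and line. Genotype quality was deposited by the authors as a phred-scaled score from 0 to 99. Removal of duplicates can lower depth most where coverage is high. Some calls had become dates and some allele depths had lost trailing zeros in a spreadsheet, and these were decoded by means of the read depth. The decoded allele depths summed to the read depth at 90.5% and 90.6% of the called sites of e35RM and e35RD. 5 columns of the cultivar Morex, which is not among the samples, were not used. Its calls and depths at the sites of MLOC_54434.1 were therefore not examined.

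Depth summed over sites was 2050613 reads in e35RM and 2059680 in e35RD, and depths were not scaled. Tests used Python 3.11.15 with numpy 2.4.6, scipy 1.17.1 and pandas 2.3.3, and figures matplotlib 3.10.9. Of 64921 simulated sites, 200 were made to differ, chosen where the mean depth of both lines was at least 5 reads. The Fisher test called 81% of these (91.4% where each line had at least 5 reads) and 0 of the rest. Counting error alone was simulated, so the spread between libraries is not in these shares. They do not describe sites with as few reads in e35RM as those of MLOC_54434.1. Sequences, map positions, annotations and effects are those of the study's tables. No genome, transcript or protein sequence was used.

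Named were MLOC_54434.1, the 5 transcripts with the closest finite depth ratio, the 5 deepest without a read in e35RM, transcripts with opposite states at all of at least 3 passing sites, and genes of the list that are zinc finger genes or share its map position. Of the last groups a part is named. AK249008.1, AK374634, MLOC_58068.1 and MLOC_54337.1 were chosen after their values were seen. The gene, the lists and the tests were chosen with earlier results of these data known. Alternatives were other site filters, depth, quality and site minimums, fold and share limits, and other forms of the ratio.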

Additional observations from a re-analysis of the deposited data

How the results depend on the processing

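Of 27 alternatives, 20 left their result within its limits, 7 moved it and 0 reversed it. For the 8 alternatives of the ratio, the limits were the wide interval of the deepest site, −7.52 to −2.49. For counts they were a fixed fold change. A count could stay or move but could not be reversed, so the 0 concerns the ratio alone. The log2 depth ratio stayed between −5.14 (sites with at least 20 reads) and −3.67 (median over sites after adding 1 read to each depth), and was −4.34 with sites without a call left out. The 7 sites in opposite states became 11 with all listed sites, 3 where e35RD had to reach a genotype quality of 60, and 3 with a reference call required in e35RM. The transcripts below the 4-fold limit went from 61 to 348 when a mean of 5 reads was enough and to 11 when 20 were asked for. The transcripts with opposite states at all sites went from 50 to 286 with at least 2 sites and to 4 with at least 5. These limits let in or leave out transcripts by construction. With at least 2 reads in each line, 2 sites of MLOC_54434.1 could be tested (lowest exact test adjusted p = 0.844), with at least 5 reads 0 sites, and with all listed sites 5 (lowest adjusted p = 0.974).

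No paired analysis was possible because the libraries of a line stand in 1 pooled column, and for the same reason there is no value without single libraries. A site without a call was counted as 0 reads, and its true depth is not given.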
